A study of Mus musculus with 6 samples.

Results

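The 10 genes described here encode CXC chemokines: Cxcl1, Cxcl2, Cxcl3, Cxcl5, Cxcl9, Cxcl10, Cxcl14, Cxcl16, Pf4 and Ppbp. They were chosen by gene name, and all 10 are among the 57180 genes of the deposited count table. The cells were macrophages derived from bone marrow of wild-type mice, which took 7 days to grow in M-CSF (20 ng/mL) from marrow taken at 6 to 8 weeks of age. The macrophages then received IL-4 (20 ng/mL), a cytokine of alternative activation, alone or together with CGRP, a peptide that sensory nerve endings release, and were sampled after 24 h. There were 3 RNA sequencing libraries of each kind, called IL-4 and IL-4+CGRP replicates 1 to 3. All cultures received IL-4 and a single time was sampled, so a level without IL-4, and any earlier peak, was not measured. The CGRP concentration is left out because the labels are ambiguous about it. The labels do not say whether replicates are separate cultures or animals, so each p-value reflects only the spread between these libraries.

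CXC chemokines are small secreted proteins that steer leukocytes along gradients by binding G protein-coupled receptors. Members with a glutamate-leucine-arginine (ELR) stretch before the first cysteines, here Cxcl1, Cxcl2, Cxcl3, Cxcl5 and the processed product of Ppbp, act on CXCR2 and recruit neutrophils. Cxcl9 and Cxcl10 are induced by interferons and attract activated T cells through CXCR3. Cxcl16 is made as a membrane-bound chemokine for CXCR6 and also takes up oxidised lipoprotein. Pf4 (platelet factor 4, CXCL4) and Ppbp (platelet basic protein) are stored in platelet granules, and some macrophages also transcribe Pf4.

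In IL-4+CGRP, Cxcl3 and Cxcl2 rose from near the limit of detection, and both remained scarce transcripts. Pf4 was at 24.6 ± 2.61 CPM in IL-4 and 49.0 ± 12.1 CPM in IL-4+CGRP (counts per 1000000 counts of the library, TMM-scaled; SD, n = 3 in each group). This near doubling missed the threshold narrowly in the test used throughout, the edgeR quasi-likelihood test (adjusted p = 0.059). Cxcl16, with the most CPM of the 10, stood at 273 ± 12.1 and 300.1 ± 6.31 CPM (SD, n = 3; edgeR adjusted p = 0.18). No member was called lower. Of the 8 members with enough counts to be tested, 2 were called higher and 0 lower at an edgeR adjusted p under 0.05. Over all genes tested, 2.32% were called higher and 1.54% lower, 3.85% in either direction. At an unadjusted p under 0.05, 4 members were higher and 1 lower, beside 8.61% and 7.21% of all genes tested, and limma-voom called the same 2 genes. DESeq2 also called 2 higher and 0 lower, but these were Cxcl3 and Pf4. The median log2 fold change of the 8 tested members was 0.08, against 0.00 over all tested genes (-0.00423 before rounding). That 8-gene summary includes Cxcl3, which reached the count minimum in 0 of 3 IL-4 and 3 of 3 IL-4+CGRP libraries and so entered the test only through the group where it is high. Cxcl2 reached the minimum in 2 of 3 and 3 of 3. The member count is therefore a description.

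**Figure D1:**
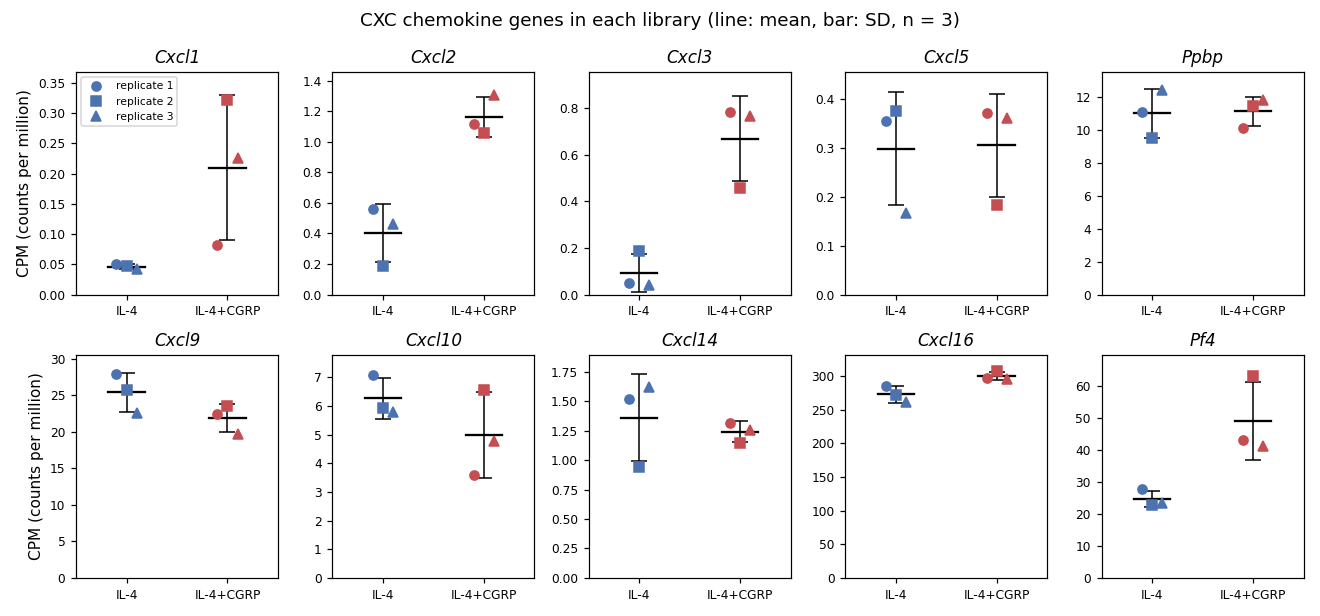
CPM of the 10 CXC chemokine genes in each library, with the mean (line) and SD (bar) of the 3 libraries of each group, on axes that start at 0. Cxcl1, Cxcl2, Cxcl3, Cxcl16 and Pf4 have groups that do not overlap, and Pf4 in IL-4+CGRP replicate 2 (62.9 CPM) stands above the other 2 libraries of its group.

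Totals ran from 20088895 to 24060444 counts per library, for which 3 counts equal 0.125 to 0.149 CPM. IL-4+CGRP replicate 2 stood apart: its Pearson correlation across genes (log2 CPM; genes are not independent replicates) was 0.9882 to IL-4 replicate 1, but 0.9876 and 0.9869 to the other 2 IL-4+CGRP libraries. The macrophage markers Adgre1, Csf1r, Cd68, Mertk, Fcgr1, Lyz2, Itgam and Mrc1 were all detected, with a summed level of 14930 to 15150 CPM in IL-4 and 15500 to 15710 CPM in IL-4+CGRP. Itgam and Mrc1 were called higher by edgeR (adjusted p = 0.0012 and 0.0033). At an unadjusted edgeR p under 0.05, 3 of these 8 markers were higher and 2, Adgre1 and Cd68, were lower. Neutrophil markers summed to 38.2 to 47.1 and 35.4 to 46.2 CPM, with Ly6g at 0 in all libraries, and 0 of 7 tested were called by edgeR, DESeq2 or limma-voom (1 at an unadjusted p under 0.05). Sums of 4 other marker lists did not overlap between groups, as for the macrophage list. All 5 endothelial markers were detected, with a sum of 105 to 123 CPM in IL-4 and 144.5 to 165 CPM in IL-4+CGRP. Of the 4 tested, Pecam1 and Kdr, which gave most of that sum, were called higher (edgeR adjusted p = 0.0011 and 0.046). By limma-voom 2 of these 4 were called higher and by DESeq2 1. Over all genes tested, edgeR called 2.32% higher. All 6 dendritic cell markers were detected (23.3 to 26.1 and 29.9 to 32.0 CPM). Of the 5 tested, Ccr7, which gave most of the sum, was called higher (1.38-fold, edgeR adjusted p = 0.0068) and Siglech lower (3.13-fold, edgeR adjusted p = 0.022). The median over these 5 genes was -0.10 on the log2 scale. Also detected were all 7 stromal markers (43.5 to 47.4 and 48.9 to 55.0 CPM), with 0 of 6 tested called by edgeR, DESeq2 or limma-voom and 2 higher at an unadjusted p under 0.05. Of 5 mast cell markers 4 were detected, at 1.67 to 1.83 and 1.53 to 1.61 CPM, with Mcpt4 at 0. The part of such cells in the results was not tested. In bulk RNA, more cells of a type and more RNA per cell cannot be told apart.

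The chemokines that attract neutrophils through CXCR2 lie together with Pf4 in a cluster on mouse chromosome 5. In RefSeq's gene order (GRCm38.p6), the protein-coding genes run Cxcl5, Ppbp, Pf4, Cxcl3, Cxcl15, Cxcl1 and Cxcl2. The 250 bases before the start of Cxcl3, Cxcl2, Cxcl1 and of their neighbour Pf4 are shown, since in these 4 cluster genes every IL-4+CGRP library was above every IL-4 library. They were thus picked by their result, and Cxcl1 met this rule with only 2, 7 and 5 counts against 1 in each IL-4 library. Capitals mark matches to the kappa B consensus, the sequence that NF-kB factors recognise. All 4 are from RefSeq, build GRCm38.p6, plus strand, and they are shown as reference sequence, since the counts were made on GRCm39.
Cxcl3, chr5:90785851-90786100: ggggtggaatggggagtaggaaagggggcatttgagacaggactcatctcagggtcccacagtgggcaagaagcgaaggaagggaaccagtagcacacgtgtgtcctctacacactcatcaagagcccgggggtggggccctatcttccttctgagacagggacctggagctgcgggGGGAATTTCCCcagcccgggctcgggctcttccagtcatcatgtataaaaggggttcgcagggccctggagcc
Cxcl2, chr5:90903649-90903898: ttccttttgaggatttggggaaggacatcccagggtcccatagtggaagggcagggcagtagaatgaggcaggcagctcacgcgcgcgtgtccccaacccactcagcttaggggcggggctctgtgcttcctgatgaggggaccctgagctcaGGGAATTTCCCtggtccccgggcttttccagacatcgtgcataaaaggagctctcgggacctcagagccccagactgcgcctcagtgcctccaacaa
Cxcl1, chr5:90890995-90891244: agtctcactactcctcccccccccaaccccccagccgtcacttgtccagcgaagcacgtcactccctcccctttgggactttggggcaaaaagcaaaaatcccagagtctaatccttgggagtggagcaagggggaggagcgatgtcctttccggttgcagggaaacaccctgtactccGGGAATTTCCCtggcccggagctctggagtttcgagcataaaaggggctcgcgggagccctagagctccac
Pf4, chr5:90772185-90772434: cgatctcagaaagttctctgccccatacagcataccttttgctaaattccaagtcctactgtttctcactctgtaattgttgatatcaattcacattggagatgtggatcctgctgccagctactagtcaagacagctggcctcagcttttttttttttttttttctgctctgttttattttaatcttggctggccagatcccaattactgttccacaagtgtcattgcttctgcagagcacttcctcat

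Cxcl1, Cxcl2 and Cxcl3 each carry the same 11-letter capital stretch, which is a kappa B match on both strands. It lies from position -71 to -61 in Cxcl1, -97 to -87 in Cxcl2 and -73 to -63 in Cxcl3, counted from the base at the gene's start as 0. In a window of 250 bases before to 50 after the start, the consensus was found in 4 of the 8 members with a promoter in the table (Cxcl10 is the other) and in 4.51% of all 32851 promoters. The share is a description with no test. Aligned end to end, the 250 bases of Cxcl2 and Cxcl3 are 54.7% identical, those of Cxcl1 and Cxcl3 50.7%, and those of Cxcl1 and Cxcl2 49.7%. Pf4 is 46.4%, 43.4% and 42.1% identical to Cxcl1, Cxcl2 and Cxcl3. Cxcl10, outside this cluster, is 47.4%, 48.3% and 49.0% identical to the same genes and 49.3% to Pf4. Nothing is read from these identities. The cAMP response element TGACGTCA, the site of CREB, was in 0 of the 8 and in 1.79% of all promoters. Its shorter form TGACG, which the full element contains, was in Cxcl1 alone of the 8 and in 20.8% of all. The AP-1 site TGANTCA was found in Cxcl9, Cxcl10 and Ppbp (7.81% of all). The interferon response core GAAANNGAA was found in Cxcl9, Cxcl10 and Cxcl14 (8.56% of all). The STAT site TTCNNNGAA was found in Cxcl14 (8.3% of all), and the same flanks 4 bases apart, the form STAT6 prefers, in 0 of the 8 (6.95% of all). Both strands were searched. A match is only a string of letters in this window.

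Cxcl3 (GRO gamma, a CXCR2 ligand) had 1, 4 and 1 counts in IL-4 replicates 1 to 3 and 19, 10.03 and 17 counts in those of IL-4+CGRP. Every IL-4+CGRP library was above every IL-4 library, with means of 0.0933 ± 0.0819 and 0.670 ± 0.182 CPM (SD, n = 3). The ratio of summed counts, 46 against 6 and scaled to library size, was 7.31 (95% exact interval 3.11 to 20.9, counting error only). The edgeR estimate was 2.79 ± 0.57 on the log2 scale (SE; adjusted p = 0.018). Cxcl3 reached the count minimum in 0 of 3 IL-4 and 3 of 3 IL-4+CGRP libraries. It was thus tested only through the group where it is high, and this p is a description. Leaving out replicate 1 or 3 of either group ended the call. Without IL-4 replicate 2, which holds 4 of the 6 IL-4 counts, the log2 fold change was 3.72.

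Cxcl2 (MIP-2, the macrophage-derived CXCR2 ligand) had 11, 4 and 11 counts in IL-4 and 27, 23 and 29 in IL-4+CGRP. The groups did not overlap, at 0.401 ± 0.191 and 1.16 ± 0.131 CPM (SD, n = 3). The gene was 2.87-fold higher (95% interval 1.62 to 5.09), or 1.52 ± 0.38 on the log2 scale (SE; edgeR adjusted p = 0.048). This is just inside the threshold: the adjusted p was 0.087 by DESeq2 and 0.066 when the dispersion was fitted without the robust option, and its 16 alternatives spanned 0.007 to 0.19. The call held in 1 of 6 fits that left out a library, the one without IL-4+CGRP replicate 2.

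The split of reads between Cxcl2 and Cxcl3 is uncertain. Their longest GENCODE transcripts share an identical stretch of 157 bases, against 23 bases between Cxcl1 and either of them. How the deposited counts divided reads that match both genes is not recorded in the sources used, and whether the 2 calls rest on shared reads was not tested.

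Cxcl1 (KC, another CXCR2 ligand) had 1, 1 and 1 counts in IL-4 and 2, 7 and 5 in IL-4+CGRP, below the minimum for the test. The groups did not overlap, but IL-4 sits at 1 count a library. The ratio of summed counts, 14 against 3, was 4.45 (95% exact interval 1.24 to 24.2, counting error only). An exact permutation test on log2 CPM (two-sided) gave p = 0.1, the smallest that 3 against 3 libraries allow. With no count filter, edgeR put Cxcl1 2.04 ± 1.09 higher on the log2 scale (SE; adjusted p = 0.44).

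Summed over Cxcl1, Cxcl2 and Cxcl3, the IL-4 libraries held 0.422 to 0.658 CPM and the IL-4+CGRP libraries 1.84 to 2.30 CPM. Pf4 alone was at 22.9 to 27.6 and 41.0 to 62.9 CPM, so these neutrophil attractants made up a small part of the chemokine transcripts in either group.

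Cxcl5 (LIX) and Ppbp, the other CXCR2 ligands, had groups that overlapped. Cxcl5 had 7, 8 and 4 counts in IL-4 and 9, 4 and 8 in IL-4+CGRP, with overlapping groups. Its ratio of summed counts was 1.05 (95% exact interval 0.539 to 2.07), and the exact permutation test (two-sided) gave p = 0.8. That interval holds counting error only, and any Cxcl5 ratio within it is compatible with these summed counts. Ppbp stood at 11.1, 9.48 and 12.4 CPM in IL-4 and 10.1, 11.4 and 11.8 CPM in IL-4+CGRP. Its fold change was 1.01 (95% interval 0.843 to 1.21; edgeR adjusted p = 0.97). The interval leaves out any change of the size measured for Cxcl2 or Cxcl3. Ppbp and Cxcl5 were not tested directly against these genes.

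Pf4 was at 27.6, 22.9 and 23.4 CPM in IL-4 replicates 1 to 3 and at 42.9, 62.9 and 41.0 CPM in the IL-4+CGRP libraries in the same order. All 3 IL-4+CGRP libraries lay above all IL-4 libraries, and replicate 2 was the highest by far. The deposited counts were 546, 487 and 561 against 1040, 1370 and 911, so counting error is small here. The fold change was 1.99 (95% interval 1.43 to 2.77), a log2 fold change of 0.99 ± 0.19 (SE). The spread within IL-4+CGRP was wide, with a coefficient of variation of 24.8% against 10.6% in IL-4.

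Pf4 passed in 7 of 17 alternatives. DESeq2 called it (adjusted p = 8.1e-10), as did edgeR without the robust option (adjusted p = 0.01), under scaling by library totals alone (adjusted p = 0.04) and among genes averaging 50 counts or more (adjusted p = 0.046). After a correction for gene length, an alternative chosen after seeing the data, the adjusted p was 2.8e-08, and without IL-4 replicate 1 and IL-4+CGRP replicate 2 together, also chosen then, it was 1.2e-09. DESeq2 called 3.47% of all genes tested. Without IL-4+CGRP replicate 2 the log2 fold change fell to 0.77 ± 0.08 (SE) and the edgeR adjusted p to 5.3e-06, in a fit that called 13.8% of all genes. The other 5 fits that left out a library gave an adjusted p from 0.073 to 0.24, and limma-voom gave 0.066. The log2 fold change ran from 0.77 to 1.12 over all 17 alternatives, with Pf4 higher in each.

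**Figure D2:**
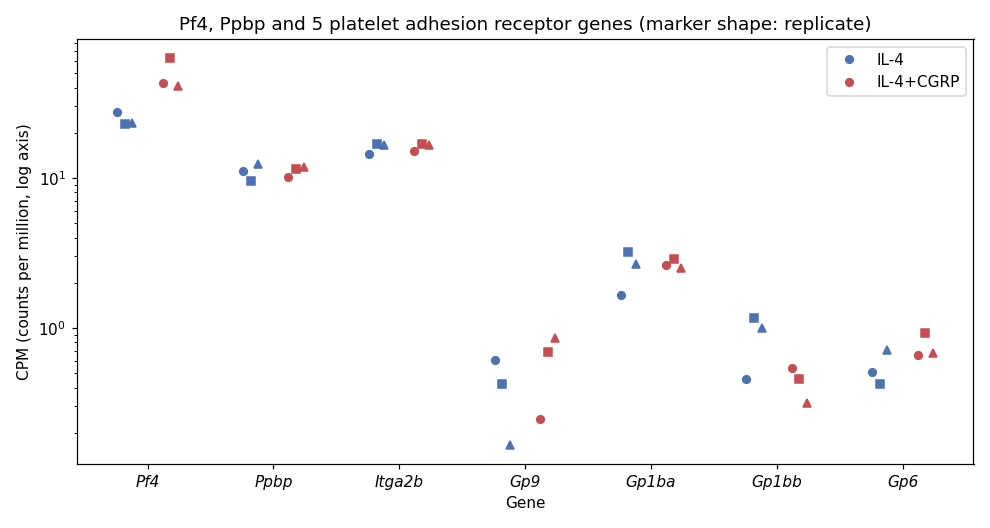
CPM on a log axis of Pf4, Ppbp and 5 platelet adhesion receptor genes (Itga2b, Gp9, Gp1ba, Gp1bb and Gp6) in each library, with blue for IL-4, red for IL-4+CGRP and the marker shape for the replicate. Pf4 is higher in all 3 IL-4+CGRP libraries, while Ppbp and each of the 5 receptor genes overlap between the groups. For the scarce genes Gp9 and Gp6 this overlap does not exclude a change of the size measured for Pf4.

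Platelets and megakaryocytes hold both Pf4 and Ppbp, so their markers were set beside these genes. All 8 markers were detected and tested, among them the adhesion receptor genes Itga2b, Gp9, Gp1ba, Gp1bb and Gp6. By edgeR, DESeq2 and limma-voom 0 of the 8 were called, 1 was lower at an unadjusted p under 0.05, and 0 had groups that did not overlap. Over all genes tested, edgeR called 3.85%, 7.21% were lower at an unadjusted p under 0.05, and 21.0% had groups that did not overlap. With 8 markers, nothing is read from the counts of 0. The intervals of the fold change for Gp9 (0.663 to 3.45) and Gp6 (0.798 to 2.31) held the 1.99 of Pf4. Overlap in these scarce genes thus does not exclude a change of that size. The intervals of the other markers ended below 1.99. The summed level of the 8 markers was 21.0 to 26.5 CPM in IL-4 and 22.1 to 25.4 CPM in IL-4+CGRP. Itga2b (integrin alpha IIb), named after its values were seen because it gave most of that sum, was at 15.9 and 16.2 CPM (edgeR adjusted p = 0.92). The marker sum and Ppbp overlapped between groups where Pf4 did not. Whether platelets or megakaryocytes gave any of the Pf4 transcripts was not tested.

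Cxcl9 (MIG) and Cxcl10 (IP-10), the interferon-induced CXCR3 ligands, were on average lower in IL-4+CGRP, and neither passed. Cxcl9 was at 27.9, 25.8 and 22.6 CPM in IL-4 and 22.4, 23.5 and 19.7 CPM in IL-4+CGRP, with overlapping groups. Its log2 fold change was -0.21 ± 0.10 (SE; edgeR adjusted p = 0.32). Cxcl10 was at 7.08, 5.91 and 5.80 CPM in IL-4 and 3.59, 6.57 and 4.78 CPM in IL-4+CGRP. Replicates 1 and 3 of IL-4+CGRP lay below all IL-4 libraries, and replicate 2 lay among them. The log2 fold change of Cxcl10 was -0.33 ± 0.20 (SE; edgeR adjusted p = 0.46). Without IL-4+CGRP replicate 2 it was -0.58 ± 0.17 (SE) with an edgeR adjusted p = 0.025, in a fit that called 13.8% of all genes. Without IL-4 replicate 1 as well, a fit chosen after seeing the data, it was -0.49 ± 0.17 (SE). Cxcl10 was not called there (edgeR adjusted p = 0.05 after rounding). Whether Cxcl10 is called lower thus depends on which libraries are kept.

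Cxcl16 was at 285, 272 and 261 CPM in IL-4 and 298, 307 and 295 CPM in IL-4+CGRP. The groups did not overlap, and the spread was small, with coefficients of variation of 4.42% and 2.1%. The fold change was 1.10 (95% interval 1.02 to 1.19), a log2 fold change of 0.14 ± 0.05 (SE; edgeR adjusted p = 0.18). Cxcl16 made up 78.9% to 80.5% of the summed CPM of the 10 genes in IL-4, and between 74.1% (replicate 2) and 78.4% in IL-4+CGRP. The lower share in replicate 2 is the library with the most Pf4. Cxcl14 (BRAK), a chemokine of epithelia and stroma, was at 1.52, 0.939 and 1.63 CPM in IL-4 and 1.32, 1.15 and 1.26 CPM in IL-4+CGRP, with overlapping groups (log2 fold change -0.13 ± 0.28, SE; edgeR adjusted p = 0.86).

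In all, 4 of the 8 tested members had groups that did not overlap: Cxcl2, Cxcl3, Cxcl16 and Pf4. Among all genes tested, 21.0% had groups that did not overlap. Given how Cxcl3 entered the test, nothing is read from the difference.

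**Figure D3:**
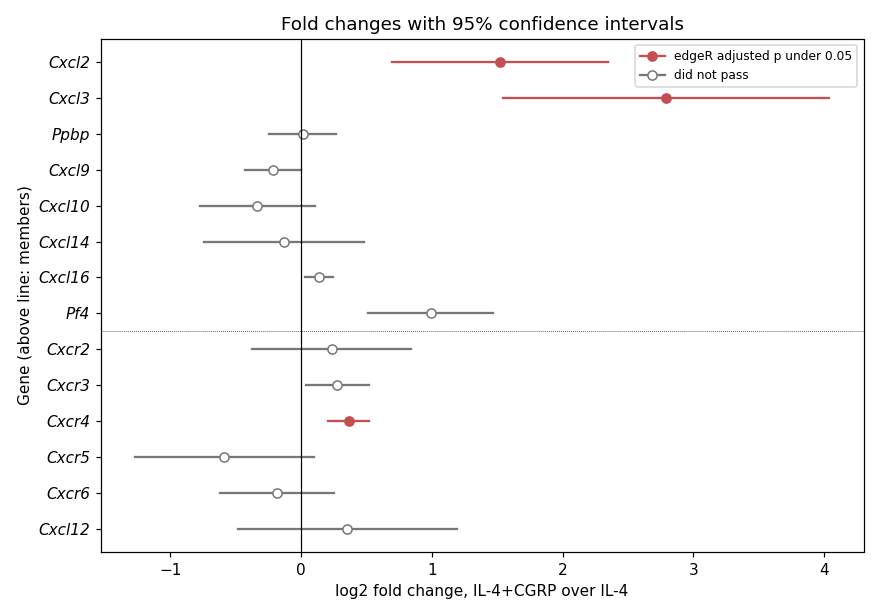
Log2 fold change, IL-4+CGRP over IL-4, with its 95% confidence interval for the 8 tested CXC chemokines (above the dotted line) and for 5 CXC receptors and Cxcl12 (below it). Filled red points passed an edgeR adjusted p under 0.05: Cxcl2, Cxcl3 and Cxcr4. Cxcl3 reached the count minimum for the test only in the IL-4+CGRP libraries. The interval of Pf4 (0.51 to 1.47) lies above 0 although its adjusted p missed the threshold.

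Levels of different genes were compared as CPM per kilobase of the gene length in the deposited table. In IL-4 the order was Cxcl16 (101 ± 4.47 CPM per kilobase; SD, n = 3), Pf4 (41.9 ± 4.45), Ppbp (10.2 ± 1.36), Cxcl9 (8.79 ± 0.927), Cxcl10 (5.73 ± 0.651), Cxcl14 (0.745 ± 0.202), Cxcl2 (0.362 ± 0.172), Cxcl5 (0.190 ± 0.0729), Cxcl3 (0.0919 ± 0.0806) and Cxcl1 (0.0487 ± 0.00469). Neighbours in this order whose libraries overlap were Ppbp and Cxcl9, Cxcl2 and Cxcl5, Cxcl5 and Cxcl3, and Cxcl3 and Cxcl1. In IL-4+CGRP the first 5 kept their places, led by Cxcl16 at 111 ± 2.34 and Pf4 at 83.2 ± 20.6 CPM per kilobase (SD, n = 3). Below them Cxcl2 (1.04 ± 0.118) stood above Cxcl14 (0.680 ± 0.0480), and Cxcl3 (0.659 ± 0.180) overlapped Cxcl14. Cxcl1 and Cxcl5 came last and overlapped.

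**Figure D4:**
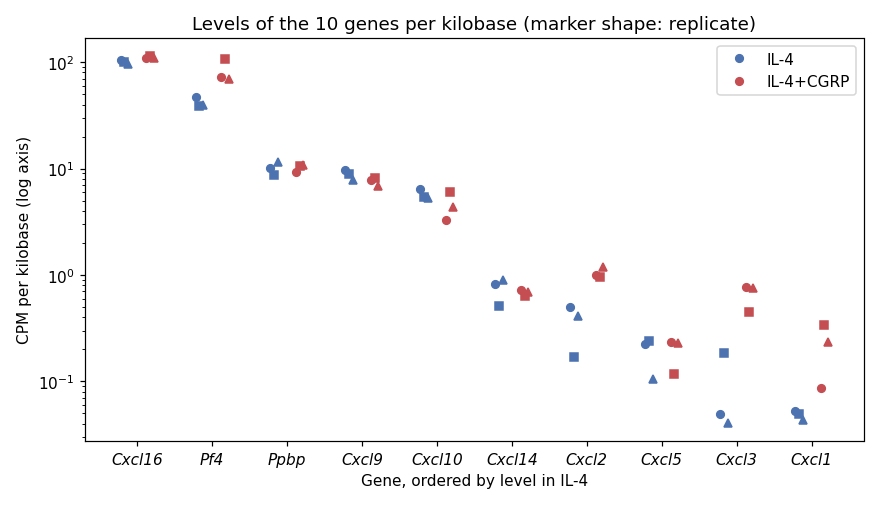
CPM per kilobase of the 10 genes in each library on a log axis, ordered by their mean in IL-4, with blue for IL-4, red for IL-4+CGRP and the marker shape for the replicate. Cxcl16 and Pf4 lead in both groups, and Cxcl2, Cxcl3 and Cxcl1 lie near the bottom in both.

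Of the other mouse CXC ligands, Cxcl13, Cxcl15 and Cxcl17 had 0 counts in all 6 libraries, which allows up to 3 counts in each, or 0.125 to 0.149 CPM. Cxcl11, the remaining CXCR3 ligand, had 3, 3 and 10 counts in IL-4 and 8, 3 and 5 in IL-4+CGRP. Cxcl12 (SDF-1), the ligand of CXCR4, was the only tested gene of these 5, with 0.824 ± 0.433 CPM in IL-4 and 1.04 ± 0.228 CPM in IL-4+CGRP (SD, n = 3; edgeR adjusted p = 0.71). It was called neither higher nor lower by edgeR, DESeq2 or limma-voom, and its unadjusted p was 0.37.

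Among the 8 CXC receptor genes, 5 were tested, 1 was called higher and 0 lower by edgeR, DESeq2 and limma-voom alike; at an unadjusted p under 0.05, 2 were higher and 0 lower. The shares of all genes called higher were 2.32% and, at the unadjusted threshold, 8.61%. The median of the 5 log2 fold changes was 0.23. Cxcr4, the CXCL12 receptor, was at 99.5, 108 and 108 CPM in IL-4 and rose to 145, 121 and 139 CPM in IL-4+CGRP, with groups that did not overlap. It was 1.29-fold higher (95% interval 1.15 to 1.43; edgeR adjusted p = 0.015). This call ended without any one of the 3 IL-4 libraries or IL-4+CGRP replicate 1, and held without IL-4+CGRP replicate 2 or 3.

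The receptors of the members themselves did not pass. Cxcr3, for Cxcl9 and Cxcl10, was at 8.96 ± 0.212 and 10.9 ± 1.26 CPM with groups that did not overlap (SD, n = 3; edgeR adjusted p = 0.24). Cxcr2, for the ELR chemokines, was at 1.08 ± 0.109 and 1.27 ± 0.264 CPM (SD, n = 3; edgeR adjusted p = 0.74). Cxcr6, for Cxcl16, was at 2.63 ± 0.344 and 2.32 ± 0.296 CPM (SD, n = 3; edgeR adjusted p = 0.7). Cxcr5, the fifth tested receptor, had an edgeR adjusted p = 0.4. Cxcr1, Ackr1 and Ackr3, at 1 to 6 counts summed over a group, were too scarce to test.

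Genes that control, store or process CXC chemokines were taken as a list of 42, of which 40 were tested. By edgeR 4 were called higher and 2 lower, and 34 did not pass. The share of called genes was thus 6 of 40, beside 3.85% over all genes. At an unadjusted edgeR p under 0.05, 10 were higher and 4 lower, beside 8.61% and 7.21% of all genes tested. Groups did not overlap in 15 of the 40, beside 21.0% of all genes tested. The median log2 fold change was 0.04.

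Of the 6 called genes, 4 store or cut chemokines. Srgn (serglycin, the granule proteoglycan that binds Pf4) rose from 122 ± 7.58 to 208 ± 16.6 CPM (SD, n = 3), which is 1.70-fold higher (edgeR adjusted p = 7.2e-05). Sdc4 (syndecan 4, a surface proteoglycan that binds chemokines) rose 1.18-fold (edgeR adjusted p = 0.035), a call that ended without any one of the 3 IL-4 libraries or IL-4+CGRP replicate 1 or 3, and without the robust option. Mmp8 (neutrophil collagenase, which can cut CXC chemokines) rose 2.52-fold (edgeR adjusted p = 5.4e-06), and Mmp12 (macrophage elastase, which cuts ELR chemokines) fell 1.34-fold (edgeR adjusted p = 5.9e-04). Adam10, which sheds Cxcl16 from the membrane, was at 160 ± 5.11 and 143 ± 4.22 CPM (SD, n = 3; edgeR adjusted p = 0.13). Adam17, another sheddase, was at 189 ± 1.49 and 179 ± 7.33 CPM (SD, n = 3; edgeR adjusted p = 0.52). For both Adam10 and Adam17 the groups did not overlap, with IL-4+CGRP lower.

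Zfp36l1, whose protein speeds decay of AU-rich mRNAs, rose 1.26-fold (edgeR adjusted p = 0.0093), a call that ended without IL-4 replicate 3 or IL-4+CGRP replicate 1. Of the 5 mRNA decay genes in the list, 4 were not called. At an unadjusted edgeR p under 0.05, 2 of the 5 were higher and 0 lower, and the median log2 fold change was 0.01. Atf3, a repressor of inflammatory genes, fell 1.34-fold (edgeR adjusted p = 0.0015). The other 4 of the 5 C/EBP and cAMP response genes were not called. At an unadjusted edgeR p under 0.05, 1 of the 5 was higher and 1 lower, and the median log2 fold change was 0.06. None of the 9 NF-kB genes was called: 0 passed by edgeR, DESeq2 or limma-voom, 1 was higher at an unadjusted p under 0.05, and the median log2 fold change was 0.09. Nfkbia (I-kappa-B alpha, an NF-kB inhibitor that NF-kB itself induces) was at 37.1 ± 1.74 and 36.4 ± 1.01 CPM (SD, n = 3; edgeR adjusted p = 0.87), and Nfkbiz at 7.18 ± 1.14 and 6.72 ± 2.49 CPM (SD, n = 3; edgeR adjusted p = 0.9).

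Of 11 tested interferon pathway genes 0 passed by edgeR, DESeq2 or limma-voom, and 3 were higher at an unadjusted p under 0.05. Irf1, an interferon-induced transcription factor, was at 312 ± 12.3 and 336 ± 5.05 CPM (SD, n = 3; edgeR adjusted p = 0.3), with groups that did not overlap.

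**Figure D5:**
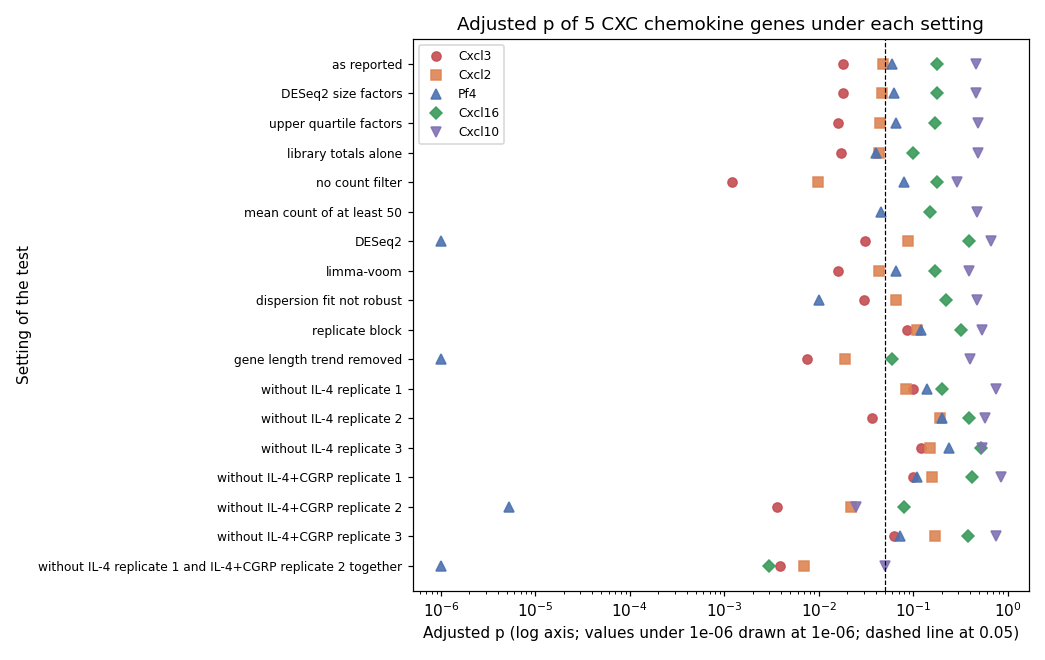
Adjusted p on a log axis of Cxcl3, Cxcl2, Pf4, Cxcl16 and Cxcl10 under each setting of the test, with a dashed line at 0.05 and the smallest values drawn at 1e-06. In the fit without IL-4+CGRP replicate 2, Cxcl3, Cxcl2, Pf4 and Cxcl10 all lie below the line. That fit called 13.8% of all genes tested, against 3.85% in the fit as reported.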

How the data were processed

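RNA sequencing of 6 libraries (2 groups of 3) was analysed from a table of estimated counts as deposited; in each library 23.3% to 26.6% of the nonzero entries were fractional (tolerance 1e-06), so counts were rounded for the tests. The authors' group means matched the library columns. The tools fastp, HISAT2 and StringTie and the build GRCm39 are listed per the submitters' processing notes. Their versions, the annotation, the counting step and strand use are not given in these sources.

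Genes were kept by filterByExpr (13260 of 57180, with 99.91% of counts; at least 10 counts, or 0.457 CPM, in 3 libraries), scaled by TMM (0.985 to 1.016) and compared by the robust quasi-likelihood test of edgeR 4.0.16 (R 4.3.3; two-sided; group the only term). P-values were adjusted over the 13260 genes by Benjamini-Hochberg. Intervals are at 95%. SEs are the log2 fold change over the square root of F. Cxcl1 and Cxcl5, below the filter, had exact permutation tests (scipy 1.17.1, prior count 0.5). CPM per kilobase uses the deposited gene length, a column of bases that the authors give.

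The members, lists and tests were chosen with earlier results of these data known. Named are all 10 members, every called gene of the receptor, other ligand and regulator lists, and, whatever their result, the members' tested receptors, Adam10, Adam17, Nfkbia, Nfkbiz and Irf1; a further gene of that rule is not reported here. Itga2b, Cxcr5, Adgre1, Cd68, called marker genes, scarce receptors and other ligands were named after their values were seen. RefSeq promoters (GRCm38.p6) were matched by symbol for 8 of 10 members. Alternatives were other scalings, count filters, DESeq2 1.42.0, limma-voom (limma 3.58.1), a fit not robust, a replicate block and leaving out each library; 2 were added after seeing the data. The fit was tested on simulated data. No 2 libraries of a group were duplicates within sampling noise (chi-square over its degrees of freedom, 3.01 to 22.0).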

Additional observations from a re-analysis of the deposited data

How the results depend on the processing

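Of the 10 CXC chemokines, 8 were tested and 2 called higher, beside 2.32% of all genes tested. The number was 1 with a mean count of at least 50, which leaves out Cxcl2 and Cxcl3 (Pf4 was called). When a library was left out, it was 0 without replicate 1 or 3 of either group and 1 without IL-4 replicate 2. It was 3 without IL-4+CGRP replicate 2, in a fit that called 13.8% of all genes. It was 4 in a fit, chosen after seeing the data, without IL-4 replicate 1 and IL-4+CGRP replicate 2. That fit called 1066 genes higher and 1187 lower over all genes. The number called lower ran from 0 to 1 when a library was left out (Cxcl10, without IL-4+CGRP replicate 2). For receptors the number called higher ran from 0 to 1, and for regulators from 2 to 7 higher and 2 to 4 lower. Regulators called lower numbered 4 with the gene length trend removed and 5 without those 2 libraries.

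Over all genes 307 were called higher and 204 lower. These counts were 584 and 434 with no count filter, 474 and 385 with the length trend removed, and 1066 and 1187 without those 2 libraries. Leaving out 1 library gave 140 to 915 higher and 80 to 950 lower. Scaling moved the median of all genes by at most 0.027 (log2).

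The replicate numbers are shared between groups. Deviations of same-numbered libraries from their group means correlated at -0.188, -0.182 and 0.13, and those of differently numbered libraries at -0.178 to 0.287. With 3 libraries in each group, these correlations cannot decide whether the numbers mark pairs. With the replicate block, 0 members and 0 receptors were called higher, 2 regulators were higher, and over all genes 176 were higher and 86 lower. Ppbp and Cxcl14 changed sign in some fits without being called. With a prior count of 2 the exact permutation p was 0.1 for Cxcl1 and 1.0 for Cxcl5; with 3 against 3 libraries it cannot be below 0.1, so this says nothing about stability. Counts of 1 to 29 limit Cxcl1, Cxcl2, Cxcl3 and Cxcl5.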
